A study of Mus musculus with 10 samples.

Results

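The subunits of the interferon and interleukin 10 receptors were examined in the hippocampus of Dp5/Dp1 mice, a mouse model of Down syndrome. The set was given by gene name and held 6 class II cytokine receptor genes among 19938 genes tested. Ifnar1, Ifnar2, Il10rb and Ifngr2 lie in a duplicated segment of mouse chromosome 16 and were present in 3 copies in Dp5/Dp1 mice. Ifngr1 and Il10ra, the partner subunits of Ifngr2 and Il10rb, lie elsewhere and had 2 copies in both groups. Each of the 6 genes was read by 1 probe set carrying its symbol alone, and none was lost to a filter. The mutants were 5 male Dp5/Dp1 mice of 16 weeks and the controls 5 male littermates of the same age with no duplication, with 1 array for the whole hippocampus of each mouse. Dp5/Dp1 mice are compound transheterozygotes that carry the Dp5Yah duplication, built with loxP sites in App and Runx1 to hold Cyyr1 to Clic6, together with the Dp1Rhr duplication, which spans Cbr1 to Fam3b. Both duplications are in every cell of the body, and many other genes share the 3 copies with the receptors. The background is C57BL/6N by the labels and C57BL/6J by the methods of the study. The control arrays are marked as analysed again, and per the series' design text the same control mice were used for the Dp5Yah and Dp1Rhr lines on their own, which were not analysed here.

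Interferons and interleukin 10 signal through receptors made of paired chains. Type I interferons bind Ifnar1 together with Ifnar2, interferon gamma binds Ifngr1 and recruits Ifngr2, and interleukin 10 binds Il10ra and recruits Il10rb, a chain that also serves the receptors for interleukin 22 and the lambda interferons. The bound receptors activate kinases of the JAK family, which phosphorylate STAT transcription factors, and in the brain microglia are well known for responding to these cytokines.

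Because the mutant titles speak of Dp5Yah and put the Dp5/Dp1 model in parentheses, the genes of both duplications were checked on every array. The mean over 31 genes between Cbr1 and Fam3b lay at 8.21 to 8.26 in Dp5/Dp1 and at 8.03 to 8.05 in controls, and that over 58 genes of the Dp5Yah interval at 8.04 to 8.12 in Dp5/Dp1 and at 7.78 to 7.88 in controls, so neither interval overlapped between the groups. Array medians ran from 6.73 to 6.80, and arrays correlated with each other, across probe sets, at 0.996 to 0.998. Neuronal markers of the hippocampus were bright, with a list mean of 11.18 to 11.31 in Dp5/Dp1 and of 11.13 to 11.23 in controls. Choroid plexus markers varied widely in both groups (list mean 7.15 to 8.92 in Dp5/Dp1 and 7.03 to 9.29 in controls), and markers of the medial habenula reached 7.96 in Dp5/Dp1 against 7.26 in controls, highest in Dp5/Dp1 replicates 2 and 5. The closing section therefore gives the subunits without these 2 arrays and with the choroid plexus markers as a covariate. All levels are log2 expression values after robust multi-array average (RMA) normalization, and all differences are Dp5/Dp1 minus control on this log2 scale. A level depends on the probes of its gene, so levels were not set against each other between genes.

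The 4 triplicated subunits sit side by side on chromosome 16 (GRCm38) between 91372783 and 91564007, a span of 191225 bases, in the order Ifnar2 (91372783 to 91405589), Il10rb (91406157 to 91425834), Ifnar1 (91485032 to 91510523) and Ifngr2 (91547059 to 91564007). Only 567 bases separate the end of Ifnar2 from Il10rb, against 59197 bases between Il10rb and Ifnar1 and 36535 bases between Ifnar1 and Ifngr2. Ifngr1 lies on chromosome 10 (19591949 to 19610229) and Il10ra on chromosome 9 (45253837 to 45269149). RefSeq promoter sequences (GRCm38.p6, 250 bases before to 50 bases after the start that the promoter table uses, which for Ifnar1 lies inside the gene span given above) were at hand for 4 of the 6 genes, namely Ifnar2, Ifnar1, Ifngr2 and Ifngr1. They are shown to set the promoters of 3 triplicated genes, each higher in Dp5/Dp1, beside that of the 2-copy partner. All are on the plus strand, written 5′ to 3′, and capitals mark every match to the core of the GC box, a motif bound by Sp family factors, as GGGCGG or as its reverse complement CCGCCC.
Ifnar2 (chr16:91372533-91372832): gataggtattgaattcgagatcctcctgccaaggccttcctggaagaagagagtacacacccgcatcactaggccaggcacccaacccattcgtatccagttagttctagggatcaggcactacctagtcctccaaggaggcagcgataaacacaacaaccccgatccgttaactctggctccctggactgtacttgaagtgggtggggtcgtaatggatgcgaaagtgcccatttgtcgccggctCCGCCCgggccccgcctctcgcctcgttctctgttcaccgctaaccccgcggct
Ifnar1 (chr16:91484965-91485264): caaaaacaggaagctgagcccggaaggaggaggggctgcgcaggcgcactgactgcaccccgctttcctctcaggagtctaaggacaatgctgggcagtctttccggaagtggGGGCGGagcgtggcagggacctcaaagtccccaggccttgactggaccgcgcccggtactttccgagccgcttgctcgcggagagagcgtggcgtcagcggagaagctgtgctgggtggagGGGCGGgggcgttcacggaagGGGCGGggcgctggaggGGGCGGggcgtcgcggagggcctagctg
Ifngr2 (chr16:91546809-91547108): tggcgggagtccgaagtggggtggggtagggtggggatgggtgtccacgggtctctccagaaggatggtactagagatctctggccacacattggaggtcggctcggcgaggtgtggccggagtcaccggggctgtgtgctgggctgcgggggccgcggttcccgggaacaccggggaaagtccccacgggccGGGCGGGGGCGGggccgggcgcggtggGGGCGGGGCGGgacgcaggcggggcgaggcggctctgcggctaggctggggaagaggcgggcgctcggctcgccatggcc
Ifngr1 (chr10:19591699-19591998): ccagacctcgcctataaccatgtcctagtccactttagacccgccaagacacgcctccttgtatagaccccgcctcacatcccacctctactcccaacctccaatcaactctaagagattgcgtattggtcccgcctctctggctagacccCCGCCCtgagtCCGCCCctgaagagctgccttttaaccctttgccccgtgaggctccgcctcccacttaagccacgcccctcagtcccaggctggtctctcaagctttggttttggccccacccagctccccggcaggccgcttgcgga

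All 4 windows held the GC box core. GC content was 57.0% for Ifnar2, 68.3% for Ifnar1, 74.3% for Ifngr2 and 60.3% for Ifngr1. The median was 52.7% over 32851 mouse promoters of the same length (quartiles 45.7% and 61.7%). Each window was above this median, but only Ifnar1 and Ifngr2 were above the upper quartile. Ifnar1 and Ifngr2 held 4 matches to GGGCGG each, Ifngr1 held 2 and Ifnar2 held 1, and in Ifngr2 the last 2 matches overlapped by 1 base. Of all promoters 35.7% held this motif. Further motifs were searched on both strands. CCGGAAG, a core bound by ETS factors, was found in Ifnar1 alone, with 2 matches, and in 8.86% of all promoters. TTCNNNGAA, the form of a gamma-activated site that STAT dimers bind, had 1 match in Ifnar2 and 1 in Ifnar1 and occurred in 8.3% of all promoters. GAAANNGAA, part of an interferon-stimulated response element (8.56% of all promoters), and TATAAA, the TATA box (13.6%), had no match in these 4 windows. Apart from the pair of GC boxes in Ifngr2 no matches overlapped. Such matches are descriptions of letters, not of bound sites.

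The first question was how far each subunit moved with its copy number. All 4 triplicated subunits rose in the Dp5/Dp1 hippocampus, by 1.35-fold to 1.58-fold, and both 2-copy partners stayed within the spread between mice. Of the 6 genes, 4 were called higher by limma (adjusted p under 0.05, Benjamini-Hochberg over all genes), where 0.201% of all genes tested were called higher. None was called lower, as for all but 0.00502% of the genes. The 5 Dp5/Dp1 arrays lay above all 5 controls for the same 4 genes, and 0.762% of all genes separated in this way. In tissue RNA, fewer cells of a type and less RNA per cell cannot be told apart, and likewise more of either.

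Ifnar2, the chain of the type I interferon receptor that binds the ligand tightly, had values of 10.17, 10.004, 10.09, 9.94 and 10.06 in Dp5/Dp1 replicates 1 to 5, against 9.38, 9.37, 9.45, 9.42 and 9.33 in control replicates 1 to 5. The groups did not overlap, and the lowest Dp5/Dp1 array stood 0.49 above the highest control. The log2 difference was 0.66 ± 0.04 (SE, 95% interval 0.57 to 0.76, n = 5 per group), a 1.58-fold rise with a limma adjusted p of 4.83e-05, the second lowest p of all genes tested. Set against the control mean, single Dp5/Dp1 mice ranged from 1.46-fold (replicate 4) to 1.72-fold (replicate 1).

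Ifnar1, the other chain of the same receptor, which is needed to start the signal, was at 9.57, 9.60, 9.65, 9.69 and 9.70 in Dp5/Dp1 and at 9.20, 9.21, 9.27, 9.23 and 9.08 in controls. Again no array of one group reached the other, with a gap of 0.30. Ifnar1 rose by 0.44 ± 0.04 (95% interval 0.36 to 0.53, 1.36-fold, limma adjusted p = 0.000409). Dp5/Dp1 replicate 1, the highest of its group for Ifnar2, was the lowest for Ifnar1.

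Il10rb, the shared chain of the interleukin 10, interleukin 22 and lambda interferon receptors, gave 9.04, 8.96, 8.95, 8.88 and 8.91 in Dp5/Dp1, against 8.52, 8.43, 8.47, 8.38 and 8.44 in controls. The groups were 0.36 apart at their nearest arrays, and replicate 1 was the highest in either group. Its difference was 0.50 ± 0.04 (95% interval 0.42 to 0.58, 1.42-fold, limma adjusted p = 0.000133), and its p was the third lowest of all genes.

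Ifngr2, the chain that brings JAK2 to the interferon gamma receptor, was at 12.01, 11.88, 11.93, 11.87 and 11.84 in Dp5/Dp1 and at 11.45, 11.50, 11.62, 11.40 and 11.41 in controls. The gap between the groups was the smallest of the 4, at 0.22, with control replicate 3 above the other controls. The rise was 0.43 ± 0.05 (95% interval 0.33 to 0.54, 1.35-fold, limma adjusted p = 0.00179).

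The 2-copy partners behaved otherwise. Ifngr1, the chain that binds interferon gamma, had values of 9.13, 8.95, 9.14, 9.02 and 9.27 in Dp5/Dp1, against 9.24, 9.04, 9.07, 9.16 and 8.95 in controls. The groups overlapped over most of their range, and the difference was 0.01 ± 0.07 (95% interval -0.13 to 0.16, limma adjusted p = 0.986), a value whose sign turned when Dp5/Dp1 replicate 5 (-0.03), control replicate 2 (-0.0023) or control replicate 5 (-0.03) was left out. Il10ra, the chain that binds interleukin 10, was at 6.77, 6.72, 6.98, 6.87 and 6.73 in Dp5/Dp1 and at 6.71, 6.80, 6.86, 6.70 and 6.67 in controls. These ranges overlapped as well, with Dp5/Dp1 replicate 3 as the highest array, and the difference was 0.06 ± 0.06 (95% interval -0.06 to 0.19, limma adjusted p = 0.888). It was 0.02 without Dp5/Dp1 replicate 3 and 0.12 without Dp5/Dp1 replicates 2 and 5, and did not pass in either case. For both genes the interval lay wholly below log2 of 1.5. Il10ra was dim, at percentile 40.02 of all genes by mean level, and RMA draws differences of dim probe sets towards 0, so a change of this gene is harder to see than one of the other subunits.

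**Figure D1:**
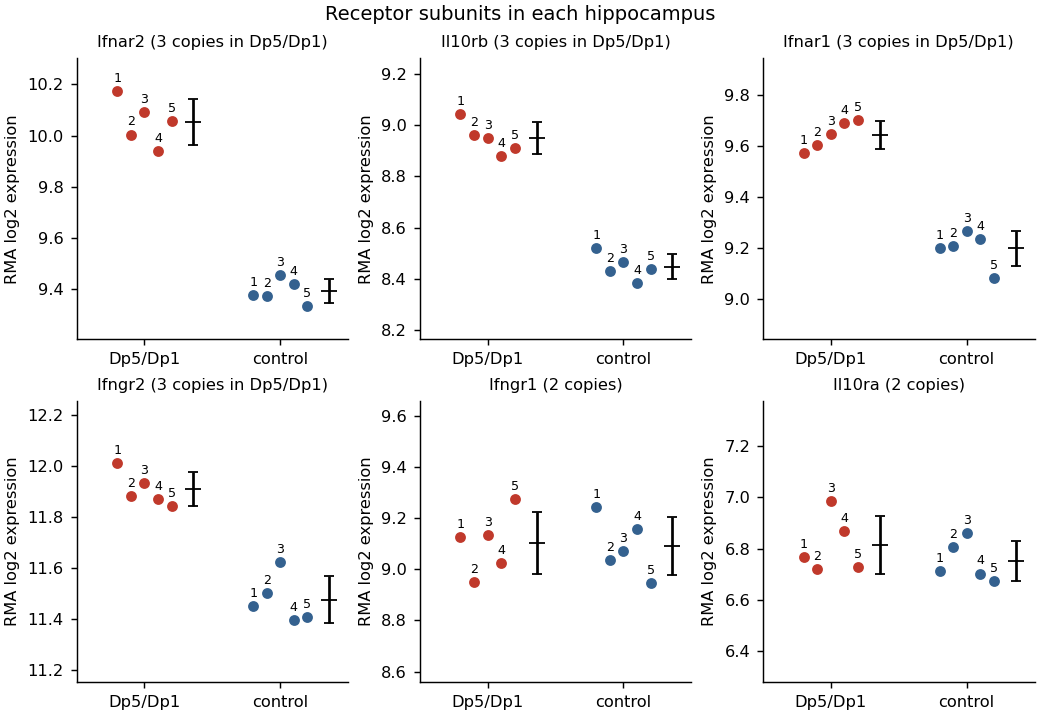
RMA log2 expression (vertical axis, of equal span in all panels but at different levels) of the 6 receptor subunits in each Dp5/Dp1 (red) and control (blue) hippocampus, numbered by replicate, with the mean and SD of the group beside its 5 points. The groups are apart for Ifnar2, Il10rb, Ifnar1 and Ifngr2 and overlap for Ifngr1 and Il10ra.

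The second question was how the rises compared with the 1.5-fold that 3 copies against 2 would give at full dosage, which is 0.58 on the log2 scale. The 95% interval of Ifnar2 included this value, while those of Ifnar1 and Ifngr2 lay wholly below it. The interval of Il10rb ended at 1.499-fold, just under 1.5-fold. This was not particular to the receptors. Of the 25 called genes of the Dp5Yah interval, 22 had a 95% interval wholly below 1.5-fold, Il10rb, Ifnar1 and Ifngr2 included. RMA and background signal compress fold changes on arrays, and their part in these values was not tested.

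The 4 triplicated subunits did not rise by the same amount. Within each array the log2 value of one subunit was subtracted from that of another, which removes shifts common to the array, and the groups were compared for 9 pairs with an exact two-sided permutation test (5 against 5 arrays, smallest possible p 0.00794) adjusted over the 9. Ifnar2 minus Ifnar1, the 2 chains of the type I interferon receptor, was 0.60, 0.40, 0.45, 0.25 and 0.36 in Dp5/Dp1 and 0.18, 0.16, 0.19, 0.18 and 0.25 in controls. Every Dp5/Dp1 value was above every control value, although replicate 4 exceeded control replicate 5 by a small margin only. The shift was 0.22 ± 0.06 (SE, 95% interval 0.08 to 0.36, n = 5 per group, exact permutation p = 0.00794, adjusted p = 0.0143).

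Ifnar2 also rose further than its close neighbour Il10rb and than Ifngr2. Ifnar2 minus Il10rb was 1.13, 1.04, 1.14, 1.06 and 1.15 in Dp5/Dp1, against 0.86, 0.94, 0.99, 1.04 and 0.89 in controls, a shift of 0.16 ± 0.04 (95% interval 0.07 to 0.25, exact permutation adjusted p = 0.0143). Here Dp5/Dp1 replicate 2 and control replicate 4 were nearly level, and without Dp5/Dp1 replicates 2 and 5 the shift was 0.17 with an adjusted p of 0.0643 by the same exact test on fewer arrays. Ifnar2 minus Ifngr2 shifted by 0.23 ± 0.04 (95% interval 0.14 to 0.32, exact permutation adjusted p = 0.0143), again with no overlap.

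Among the other 3 triplicated subunits no unequal rise passed the test. The shift was 0.06 ± 0.06 for Il10rb minus Ifnar1 (95% interval -0.09 to 0.21, exact permutation adjusted p = 0.531). For Il10rb minus Ifngr2 it was 0.07 ± 0.04 (95% interval -0.03 to 0.17, exact permutation adjusted p = 0.202), and this shift reached 0.09 and passed when control replicate 1 was left out (adjusted p = 0.0476). Ifnar1 minus Ifngr2 gave 0.01 ± 0.06 (95% interval -0.13 to 0.16, exact permutation adjusted p = 0.833). These intervals leave room for unequal rises of up to about the size seen between Ifnar2 and the others.

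Between receptor partners, the triplicated chain gained on the 2-copy chain. Ifngr2 minus Ifngr1, the 2 chains of the interferon gamma receptor, was 2.89, 2.93, 2.80, 2.85 and 2.57 in Dp5/Dp1 and 2.21, 2.47, 2.55, 2.24 and 2.46 in controls. Dp5/Dp1 replicate 5, the lowest of its group, was still above control replicate 3, the highest of the controls, and the shift was 0.42 ± 0.09 (95% interval 0.21 to 0.63, exact permutation adjusted p = 0.0143). Il10rb minus Il10ra, the 2 chains of the interleukin 10 receptor, was 2.28, 2.24, 1.97, 2.01 and 2.18 in Dp5/Dp1 and 1.80, 1.63, 1.60, 1.68 and 1.77 in controls, a shift of 0.44 ± 0.07 (95% interval 0.27 to 0.61, exact permutation adjusted p = 0.0143). The 2 chains with 2 copies, Ifngr1 minus Il10ra, showed a shift of -0.05 ± 0.10 (95% interval -0.28 to 0.17, exact permutation adjusted p = 0.714).

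**Figure D2:**
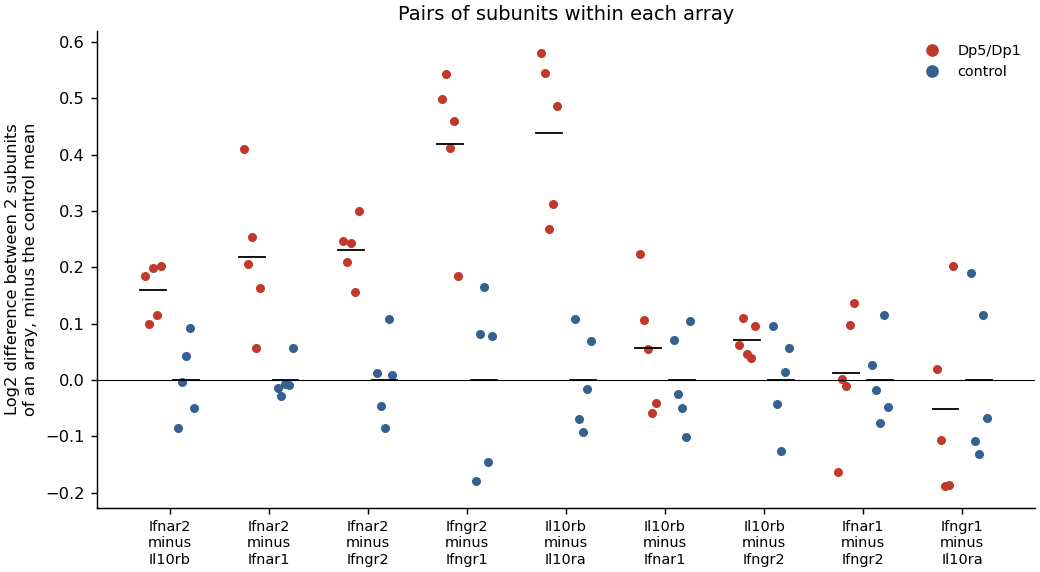
Log2 difference between 2 subunits within an array, minus the control mean of that pair (vertical axis), for 9 pairs, with Dp5/Dp1 arrays in red to the left of control arrays in blue (n = 5 each) and the group mean as a bar. The groups are apart for the 5 pairs on the left, with shifts of 0.16 to 0.44, and overlap for the 4 on the right.

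The receptor genes were then set beside the genes next to them. On the proximal side the nearest measured genes are Olig1 and Olig2, transcription factors of the oligodendrocyte lineage, and the predicted gene Gm9881, all inside the same duplication. Olig1, 100843 bases from the cluster, was at 10.13, 10.05, 9.99, 9.84 and 9.98 in Dp5/Dp1 and at 9.90, 9.92, 9.73, 9.90 and 9.79 in controls, with overlap and a difference of 0.15 ± 0.06 that did not pass (limma adjusted p = 0.806). Olig2 had a difference of 0.11 ± 0.10 (limma adjusted p = 0.888), and Gm9881, among the dimmest 40% of genes, one of -0.02 ± 0.03. On the distal side the values were close to those of the receptors. Gart, an enzyme of purine synthesis 57387 bases away, rose by 0.47 ± 0.04 (limma adjusted p = 0.000243). Tmem50b, a membrane protein gene 10500 bases from Ifngr2, differed by 0.49 ± 0.12 and did not pass (limma adjusted p = 0.447), with Dp5/Dp1 arrays at 12.28 to 12.62 and a wider spread in controls, at 11.49 to 12.31, that overlapped them. Dnajc28, which encodes a J-domain protein, had all Dp5/Dp1 arrays above the controls and a difference of 0.41 ± 0.09 (limma adjusted p = 0.179).

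**Figure D3:**
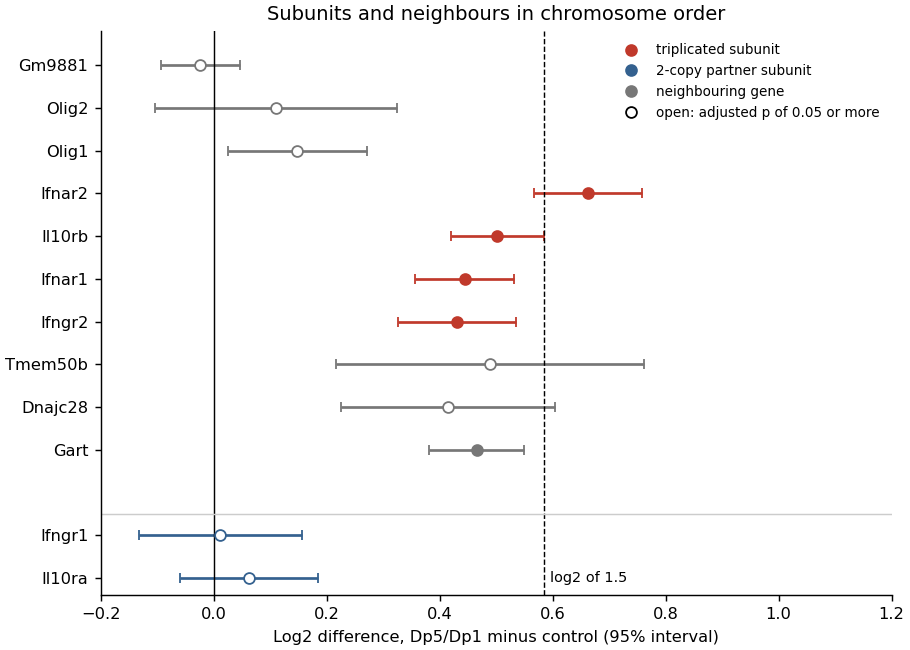
Log2 difference of Dp5/Dp1 minus control with its 95% interval (horizontal axis) for the 4 triplicated subunits and the 3 measured genes on each side of them, in chromosome order from top to bottom, and below the line for the 2-copy partners; the dashed line marks log2 of 1.5. Ifnar2 has the highest value at 0.66, Olig1, Olig2 and Gm9881 lie at 0.15 or lower, and the intervals of Ifngr1 and Il10ra include 0.

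Over the whole Dp5Yah interval, 58 genes were measured. Left out were Cyyr1 and the claudin and keratin-associated genes, known by symbols that begin with Cldn or Krtap. Dim genes with Riken or Gm symbols between Grik1 and Tiam1, such as 2310061N02Rik (difference -0.02) and Gm10229 (-0.0023), stayed in. By size of the log2 difference, Ifnar2 ranked 1, Il10rb 2, Ifnar1 13 and Ifngr2 16 among the 58 genes. The median of the 4 subunits was 0.47, beside 0.28 over the other 54 genes and 0.38 over the 33 of these that were above the dimmest 40% of all genes. The largest difference of any other gene was 0.50, for Rwdd2b, level with Il10rb. Of the 54, limma called 21 higher and 0 lower. No test was made of these ranks.

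**Figure D4:**
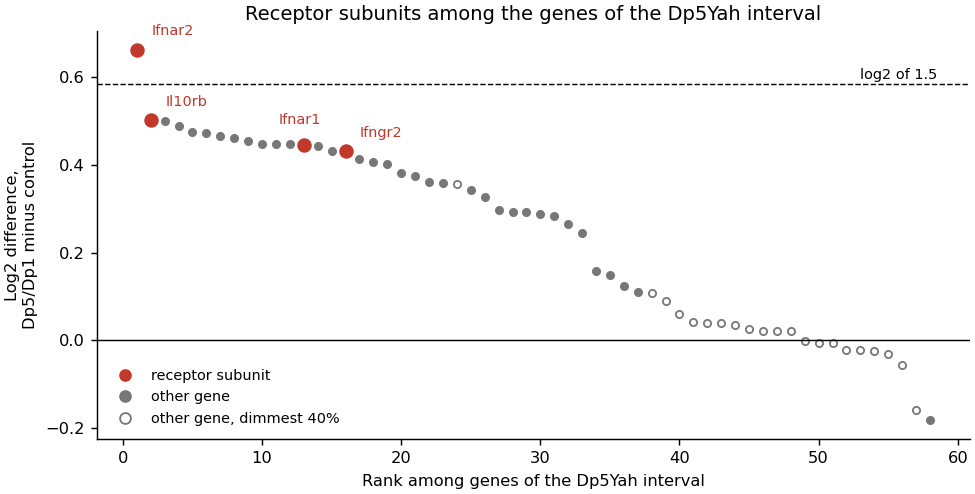
Log2 difference of Dp5/Dp1 minus control (vertical axis) of 58 genes of the Dp5Yah interval in order of size (horizontal axis), with the receptor subunits in red, other genes in grey and dim genes as open points; the dashed line marks log2 of 1.5. Ifnar2 is the single gene above the line, and dim genes gather near 0.

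Next, the genes that act with these receptors were followed through 8 lists, which were written with earlier results of these data known. limma called 0 of their 129 measured genes, 63 of which were among the dimmest 40%. At an unadjusted p under 0.05 there were 13, or 10.1%, beside 6.06% of all genes tested. All Dp5/Dp1 arrays lay above the controls for 1 of the 129 (Gbp3), beside 0.762% of all genes. FCROS, the rank method of the study as rewritten here, passed 9 of the 129 higher and 3 lower, beside 2.84% of all genes higher and 2.21% lower.

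Other receptors of the family stayed near 0. The remaining class II receptors comprised 6 measured genes with differences from -0.05 to 0.04. Ifnlr1, the partner of Il10rb for lambda interferons, was at 5.84 ± 0.07 in Dp5/Dp1 and 5.85 ± 0.07 in controls (SD, n = 5), and Il22ra1, its partner for interleukin 22, at 6.16 ± 0.03 in Dp5/Dp1 and 6.17 ± 0.10 in controls. Both are among the dimmest 40% of genes, as are Il20ra (difference -0.02 ± 0.04 SE) and Il22ra2, a soluble binding protein of interleukin 22 (-0.05 ± 0.05). Il20rb, a chain of the interleukin 20 receptor, was at 0.02 ± 0.05, and F3, tissue factor, at 0.04 ± 0.05. Of 26 class I cytokine receptors, 12 had a higher mean in Dp5/Dp1 and 0 had an unadjusted p under 0.05 in limma or passed FCROS. The lowest p among them belonged to Il3ra (0.08 ± 0.04, limma adjusted p = 0.831) and Csf2rb2 (0.08 ± 0.04, limma adjusted p = 0.832), chains of the interleukin 3 receptor.

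Most ligands were dim. Of 20 measured interferons and cytokines of the interleukin 10 family, 17 were among the dimmest 40% of genes and 11 had a higher mean in Dp5/Dp1. Ifnb1, the interferon beta gene, was at 5.60 ± 0.03 in Dp5/Dp1 and 5.63 ± 0.05 in controls, Ifng at 6.20 ± 0.05 in Dp5/Dp1 and 6.27 ± 0.05 in controls, and Il10 at 5.00 ± 0.04 in Dp5/Dp1 and 5.00 ± 0.05 in controls. Ifne, with the lowest p of the list, had a difference of -0.07 ± 0.04 (limma adjusted p = 0.824). The interferon alpha genes are near-identical copies, so their probe sets cannot be read as single genes.

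The kinases and transcription factors that the receptors use were near their control levels. Jak1, which pairs with Ifnar2, Ifngr1 and Il10ra, was at 11.13 ± 0.04 in Dp5/Dp1 and 11.17 ± 0.04 in controls. Tyk2, the kinase of Ifnar1 and Il10rb, was at 7.38 ± 0.04 in Dp5/Dp1 and 7.37 ± 0.09 in controls. Jak2, the kinase of Ifngr2, had a difference of -0.12 ± 0.06 (limma adjusted p = 0.832), the lowest p of these 10 genes. Differences were -0.02 ± 0.05 for Stat2, 0.02 ± 0.06 for Stat3 and 0.09 ± 0.07 for Irf9, a DNA-binding partner of Stat2. Stat4, which is dim, was at 0.06 ± 0.04.

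Among 13 regulators that restrain the pathway, 6 had a higher mean. Usp18, which binds Ifnar2 and dampens its signal and is itself induced by type I interferon, was at 6.37 ± 0.15 in Dp5/Dp1 and 6.15 ± 0.08 in controls, a difference of 0.21 ± 0.07 that did not pass (limma adjusted p = 0.714, unadjusted p = 0.00903). It lies among the dimmest 40% of genes. Socs1 (0.02 ± 0.04) and Socs3 (0.02 ± 0.04), inhibitors of JAK kinases, differed by less than their SE. Pias2, an inhibitor of STAT factors, had a difference of -0.12 ± 0.04 (limma adjusted p = 0.741). FCROS passed 3 of the list, Usp18 higher and Pias2 and Ptpn1 lower, the last a phosphatase of JAK kinases with a difference of -0.13 ± 0.05 (limma adjusted p = 0.806).

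Target genes of the receptors lay mostly on the higher side. Of 26 targets of type I interferon, 22 had a higher mean and 5 an unadjusted p under 0.05, with a median difference of 0.09. Of 20 targets of interferon gamma, 17 had a higher mean, or 13 without Dp5/Dp1 replicate 5. At an unadjusted p under 0.05 there were 4 higher and 1 lower of them, and the median difference was 0.08. Over all genes 51.5% had a higher mean and the median was 0.0019. Interleukin 10 targets, 8 in all, divided evenly with 4 higher, or 2 without control replicate 1. The lowest p belonged to Rsad2 (0.16 ± 0.05, limma adjusted p = 0.656) and Oasl2 (0.31 ± 0.10, limma adjusted p = 0.714) for type I, to Gbp3 (0.17 ± 0.04, limma adjusted p = 0.400) and Irgm1 (0.27 ± 0.09, limma adjusted p = 0.734) for type II, and to Ddit4 (-0.14 ± 0.11) and Il1rn (0.03 ± 0.04) for interleukin 10. FCROS passed 5 of the 26 type I targets, all higher, and 3 higher and 1 lower of the 20 type II targets, where it passed 2.84% of all genes higher. Leukocyte markers leaned the same way, with 10 of 11 higher in Dp5/Dp1, a median of 0.03, 1 at an unadjusted p under 0.05 and overlapping list means of 5.59 to 5.69 in Dp5/Dp1 and 5.55 to 5.63 in controls. Of these markers 10 were among the dimmest 40% of genes, and their part in the target values was not tested. The list mean of type I targets was 7.13, 6.93, 7.09, 6.91 and 7.03 in Dp5/Dp1 replicates 1 to 5, against 7.00, 6.89, 6.87, 6.95 and 6.84 in controls, so the groups overlapped. The 3 highest Dp5/Dp1 arrays, replicates 1, 3 and 5, were above all controls, and the other 2 were not. For type II targets the list mean was 7.31 in Dp5/Dp1 replicate 5 and 6.90 to 7.05 in the other Dp5/Dp1 arrays. In controls it was 6.85 to 7.04, so these groups overlapped too.

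**Figure D5:**
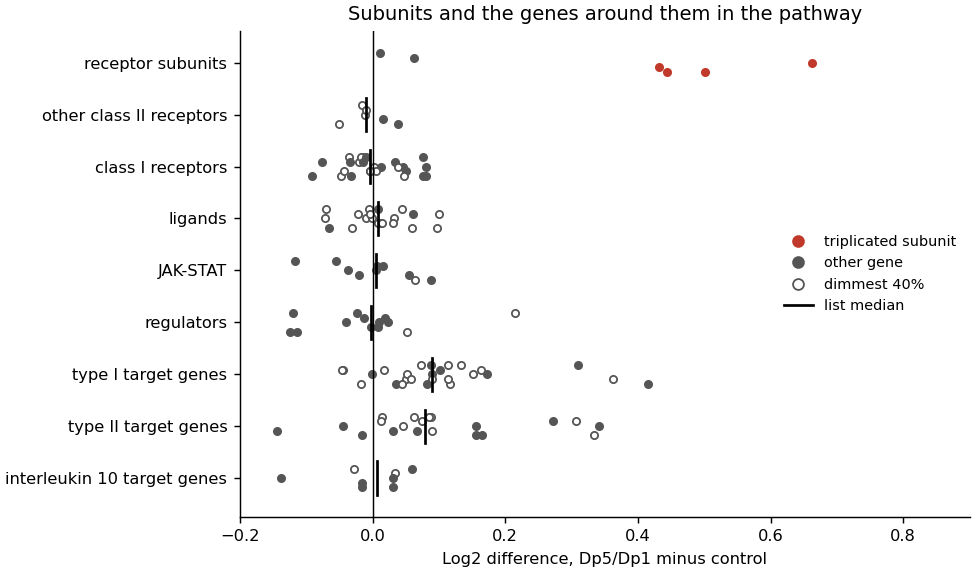
Log2 difference of Dp5/Dp1 minus control (horizontal axis) for the 6 receptor subunits and the measured genes of 8 lists, 1 point per gene, with dim genes as open points and the list median as a black bar. The triplicated subunits, at 0.43 or more, lie to the right of every other gene shown, while the medians of the 2 interferon target lists are at 0.09 and 0.08 and those of the other 6 lists between -0.01 and 0.01 when rounded.

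Within the groups the subunits varied in different ways. Dp5/Dp1 replicate 1 was the highest array of its group for Ifnar2, Il10rb and Ifngr2 and the lowest for Ifnar1, while replicate 5 was the highest for Ifnar1 and Ifngr1 and replicate 3 for Il10ra. For each subunit the most similar genes were sought among 11962 genes above the dimmest 40%, by the Pearson correlation over the 10 arrays after the group means were removed, as a description with no test. With so many genes and 10 arrays, high values can arise by the search alone. Ifnar2 was nearest to Fcer1g (0.978), the signalling chain of Fc receptors on microglia and other myeloid cells, then Mrps34 (0.940) and 3110082J24Rik (0.938). The nearest genes were Pter (0.949), Bckdk (0.918) and Jph1 (0.909) for Il10rb, and Zfp354c (0.930), Hapln1 (0.925) and Cstf2t (0.904) for Ifnar1. Ifngr2 was nearest to Dhcr7 (0.971), an enzyme of cholesterol synthesis, then Wrnip1 (0.953) and Fbxl21 (0.948). For Ifngr1 they were Txndc5 (0.955), Clptm1l (0.953) and Pygm (0.942), and for Il10ra Wdr55 (0.930), Virma (0.917) and Bckdhb (0.913). None of these 18 genes was called by limma between the groups.

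Fcer1g was at 9.74, 9.27, 9.56, 9.16 and 9.48 in Dp5/Dp1 and at 9.15, 9.18, 9.34, 9.35 and 9.11 in controls, a difference of 0.22 that did not pass (limma adjusted p = 0.823). Its Dp5/Dp1 arrays fell in the same order as those of Ifnar2 and of the type I target list. Replicate 1 was highest, then 3, 5, 2 and 4, an order noticed after the values were seen. Fcer1g was picked from 11962 genes for its likeness to Ifnar2, so sharing an order with Ifnar2 largely follows from that choice. The control arrays shared no such order. The highest control was replicate 3 for Ifnar2, replicate 4 for Fcer1g and replicate 1 for the type I list. Of 20 microglia markers 19 were measured, 16 of them above the dimmest 40%, and their list mean was 8.62, 8.54, 8.64, 8.47 and 8.66 in Dp5/Dp1, against 8.58, 8.53, 8.61, 8.63 and 8.57 in controls. These ranges overlapped and the group means differed by 0.0011. With group means removed, the correlation of the microglia list mean over the 10 arrays was 0.78 for Ifnar2 and 0.64 for Ifngr1, and between -0.05 and 0.24 for the other 4 subunits, as a description with no test. Values of like size were not particular to microglia. Ifngr1 was at 0.74 with the endothelial list, 0.66 with border macrophages and 0.63 with astrocytes, and Ifnar2 at 0.62 with astrocytes. Ifngr2 was at 0.74 with hippocampal neurons and -0.64 with choroid plexus, and Ifnar1 at -0.73 with oligodendrocytes. Markers of border macrophages, 7 in all, were each among the dimmest 40% of genes, and 1 had a higher mean.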

How the data were processed

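Total RNA of the whole hippocampus was hybridised to Affymetrix Mouse Gene 1.0 ST arrays, from 200 ng per the labels and from a smaller amount per the methods of the study. The authors normalized the arrays by RMA and deposited log2 values per probe set. RMA, limma and mm10 are credited in the submitters' processing notes, and versions are not given in the sources used here. Of 35556 probe sets, 21789 carried 1 gene symbol, 1621 several and 12146 none in the platform annotation. For the 999 genes with several probe sets the one with the highest mean was read, which left 19938 genes. Positions came from RefSeq (GRCm38.p6, the assembly of mm10), and groups from the condition label. Titles describe the arrays as biological replicates.

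Groups were compared by a two-sided moderated test in limma 3.58.1 (R 4.3.3; lmFit, eBayes) with Benjamini-Hochberg adjustment over 19938 genes and a threshold of 0.05, a substitute for FCROS, the rank method of the study, which was rewritten as an alternative. Pairs of subunits were compared by exact permutation. The number of arrays limits the precision. Scripts were tested on simulated data. The members and lists were chosen with earlier results of these data known. Named genes are the 6 subunits, 3 measured genes on each side of the cluster, chosen receptors, ligands, kinases and regulators, the 2 lowest p of each list where none was called, and the 3 nearest genes of each subunit. Rwdd2b and Ptpn1, and the single arrays of Fcer1g, were named after values were seen. Alternatives were other gene filters, normalizations, probe set rules, variance models, covariates, a replicate block, FCROS and leaving out arrays.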

Additional observations from a re-analysis of the deposited data

How the results depend on the processing

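The rises of Ifnar2, Il10rb, Ifnar1 and Ifngr2 passed limma's threshold under each of 21 alternatives, with log2 differences of 0.632 to 0.691, 0.478 to 0.520, 0.415 to 0.462 and 0.405 to 0.468 and highest adjusted p of 0.00434, 0.0045, 0.0142 and 0.0155. Adjusted for the choroid plexus markers, these 4 were at 0.66, 0.50, 0.44 and 0.41, Ifngr1 at 0.04 and Il10ra at 0.05, and without Dp5/Dp1 replicates 2 and 5 Il10ra was at 0.12. FCROS passed the same 4 and neither Ifngr1 nor Il10ra. Genes called over the whole table numbered 41, against 26 with the replicate block, 21 without Dp5/Dp1 replicates 2 and 5, 29 to 39 when 1 array was left out, and 1008 by FCROS. Deviations from the group mean were compared between arrays of the same replicate number, which cannot show whether litters or processing batches were shared. They correlated at -0.35 to 0.29, with no steady pairing by number. Of the 5 numbers replicate 2 alone matched its own number best in both directions. With the replicate block Ifnar2 was at 0.66 (adjusted p = 0.00434) and no subunit changed its call.

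When 1 array was left out, Ifngr1 ran from -0.03142 to 0.04945, Il10ra from 0.02 to 0.09, Ifnar1 minus Ifngr2 from -0.01794 to 0.05685 and Il10rb minus Ifngr2 from 0.03888 to 0.09481, the last passing without control replicate 1. Ifngr1 was below 0 at -0.0023 without control replicate 2 and at -0.02504 without control replicate 5, and Ifnar1 minus Ifngr2 at -0.008393 without Dp5/Dp1 replicate 4 and at -0.006185 without control replicate 3. Without Dp5/Dp1 replicates 2 and 5, Ifnar2 minus Il10rb was 0.1668 and did not pass (exact permutation adjusted p = 0.0643, with 3 arrays against 5), and Ifnar1 minus Ifngr2 was -0.02481. The cause of these changes was not tested. In all, 129 of 132 values for single subunits kept direction and call. Of 162 values for pairs 156 were counted as unchanged, and the exceptions are those named here. With the replicate block or a covariate the pairs were not tested. There a pair counted as unchanged if its shift moved by less than the pooled SD of the 2 groups. Of the list counts, the genes with a higher mean moved by over 1.5 times in 8 cases, 3 of them where the dimmest 40% of genes were left out, so that fewer genes were counted. The others were the remaining class II receptors (2 of 6, or 1 without Dp5/Dp1 replicate 1 or with probe sets averaged, and 4 without control replicate 1), interleukin 10 targets (4 of 8, or 2 without control replicate 1) and JAK-STAT genes (6 of 10, or 3 without Dp5/Dp1 replicates 2 and 5). The depth of the measurement is set by signal over background, which limits Il10ra, the ligands and many targets.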

Other observations

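Outside the immune genes, markers of other cell types in the dissected tissue gave the following values. Endothelial markers, 10 in all, had overlapping list means of 8.59 to 8.72 in Dp5/Dp1 and 8.49 to 8.70 in controls. A higher mean was seen for 6 and a lower mean for 4, and 3 were higher at an unadjusted limma p under 0.05. Over all 19938 genes tested, 676 were higher and 532 lower at that p. After adjustment limma called 0 of the endothelial markers (lowest adjusted p = 0.491). Of 10 astrocyte markers 2 were lower at an unadjusted limma p under 0.05, and 0 were called (lowest limma adjusted p = 0.806). Their list mean was 10.73 to 10.82 in Dp5/Dp1 and 10.76 to 10.86 in controls. Oligodendrocyte markers, the lineage of the neighbouring Olig1 and Olig2 genes, had a list mean of 11.06 to 11.36 in Dp5/Dp1 and 11.07 to 11.21 in controls, with 5 of 8 higher.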
